A study of Homo sapiens with 24 samples.

Results

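The comparison described here sets HEK293T cells without MIR210 (MIR210-KO) against wild-type (WT) cells, both kept in normoxia. Members were all libraries that the labels give as MIR210-KO or WT at 21% oxygen, 8 of the 24 libraries of the study, 4 per genotype. HEK293T is a human embryonic kidney line of epithelial morphology that is easy to transfect and edit. Cells of both groups grew in DMEM with high glucose, 10% heat-inactivated serum and antibiotics, and stayed at 21% oxygen for 24 h. The RNA was isolated with TRIzol and sequenced as messenger RNA. The other 16 libraries were MIR210HG-KO cells at 21% oxygen and all 3 genotypes at 1% oxygen. They share the fit behind every test below, with its scaling, low-count filter and spread. Otherwise they enter only where a result is set beside them. Which bases were removed, whether the MIR210-KO line is a single clone, and whether the libraries come from separate cultures is not in the labels. P-values therefore measure the spread between libraries within the 6 groups of the shared fit, which may be technical. The genotype and any other difference between the MIR210-KO line and the WT line cannot be told apart. In bulk RNA, fewer cells of a type and less RNA per cell also cannot be told apart.

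MIR210 encodes miR-210, a microRNA that HIF-1 induces when oxygen is low and that is known for acting on mitochondrial and iron-sulfur cluster genes. A microRNA pairs through its seed with sites in the 3′ UTR of messenger RNAs, and its loss can let such messengers accumulate. MIR210 lies inside the long non-coding gene MIR210HG, near the short-arm end of chromosome 11. In the RefSeq table for GRCh38.p14, the hairpin lies at chr11:568089-568198 on the minus strand. It is shown here because it is the labelled target of the edit, with the part that becomes the mature strand miR-210-3p in capitals, and the mature strands follow with the seed, bases 2 to 8, in capitals.
MIR210 hairpin: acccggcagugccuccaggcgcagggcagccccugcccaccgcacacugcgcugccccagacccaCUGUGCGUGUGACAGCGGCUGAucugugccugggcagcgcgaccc
hsa-miR-210-3p: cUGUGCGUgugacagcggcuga
hsa-miR-210-5p: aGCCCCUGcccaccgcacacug
The 3′ UTR letters opposite bases 2 to 8 of miR-210-3p are ACGCACA, and with an A opposite base 1 they form the 8-base site ACGCACAA.

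Depth was similar in both groups, with 25960367 to 30057743 counts per MIR210-KO library and 26330323 to 31547054 per WT library. Over the 2000 most variable genes of the 8 libraries, the first principal component held 94.5% of the variance and separated MIR210-KO from WT, and MIR210-KO library 3 stood apart on the second (1.58%). Ribosomal protein genes took 8.35% to 8.91% of counts in MIR210-KO libraries and 7.45% to 7.77% in WT libraries, and long non-coding RNA 1.25% to 1.41% and 1.55% to 1.62%. Of 14 markers listed for the HEK293 line, 12 averaged 1 CPM or more in MIR210-KO cells and 12 in WT cells, with a summed level of 1043 to 1143 CPM per MIR210-KO library and 703 to 731 CPM per WT library. Markers of other cell types were low in both groups: 10 fibroblast markers summed to 34.4 to 39.4 CPM in MIR210-KO libraries and 43.7 to 47.6 CPM in WT libraries, and 10 blood markers to 4.09 to 4.69 CPM and 3.60 to 4.82 CPM.

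The edited locus was read first. The precursor of miR-210 had 1 count over the 4 MIR210-KO libraries and 3 over the 4 WT libraries, too few to test, and mature microRNAs are not captured by this kind of library. The counts therefore do not show whether the mature microRNA was absent. MIR210HG, the host transcript, had 3.50, 2.10, 3.59 and 4.71 CPM in MIR210-KO libraries, against 6, 6.34, 4.83 and 5.63 CPM in WT libraries. The groups did not overlap, and the difference was -0.71 ± 0.15 (adjusted p = 0.00044) as a log2 fold change of MIR210-KO over WT with its standard error (SE), from an edgeR quasi-likelihood test adjusted over all genes tested. For scale, 44.2% of the 19952 genes tested were called in this comparison, 22.6% higher and 21.6% lower, for 47.7% the groups did not overlap, and the median log2 fold change of all was 0.0050. Without MIR210-KO library 2, the lowest, the difference of MIR210HG was -0.53. MIR210HG was thus still transcribed in MIR210-KO cells, whereas it had 0 counts in the MIR210HG-KO libraries.

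Of the 20 other genes tested within 200 kb of MIR210, 11 were called lower and 9 were not called. TMEM80, a transmembrane protein gene, had 13.2, 13.4, 12.9 and 11.9 CPM in MIR210-KO libraries, against 37.7, 33.96, 35.4 and 35.4 CPM in WT libraries, a difference of -1.47 ± 0.08 (adjusted p = 4.23e-16). No library of one group reached the other. DEAF1, a transcription factor gene that overlaps TMEM80 on the opposite strand, averaged 89 ± 3.34 CPM in MIR210-KO cells and 159 ± 3.55 CPM in WT cells (SD, n = 4 each), a difference of -0.84 ± 0.077 (adjusted p = 9.76e-11). The phospholipid synthesis gene PTDSS2 differed by -0.69 ± 0.078, the pentose phosphate enzyme gene TALDO1 by -0.66 ± 0.07, GATD1 by -0.57 ± 0.058, the small GTPase gene HRAS by -0.33 ± 0.087 and PHRF1, next to MIR210HG, by -0.32 ± 0.07. The interferon regulator gene IRF7 was at 0.918, 1.37, 0.459 and 1.52 CPM in MIR210-KO libraries and 1.25, 2.25, 1.78 and 1.63 CPM in WT libraries, and its difference of -0.68 ± 0.39 did not pass (adjusted p = 0.162). These genes belong to a stretch of chromosome 11 in which most genes were lower, described with the chromosomes below, and the part of that shift in their values was not tested.

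Predicted and reported targets of miR-210 did not move one way. A 3′ UTR was available for 14403 protein-coding genes tested, and 519 of them held at least 1 site (73 with 8 bases). Among the 519, 163 were called higher and 123 lower, which is 31.4% and 23.7%, and the median log2 fold change was 0.057. Among the 13884 genes with no site, 27.5% were called higher and 24.1% lower, with a median of 0.024. The 73 genes with an 8-base site had a median of 0.047, with 20 called higher and 17 lower. Restricting the genes to at least 10 CPM gave medians of 0.029 with a site and 0.010 without. Genes with a site had longer 3′ UTRs, with a median of 2611 bases against 937 bases without a site.

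**Figure D1:**
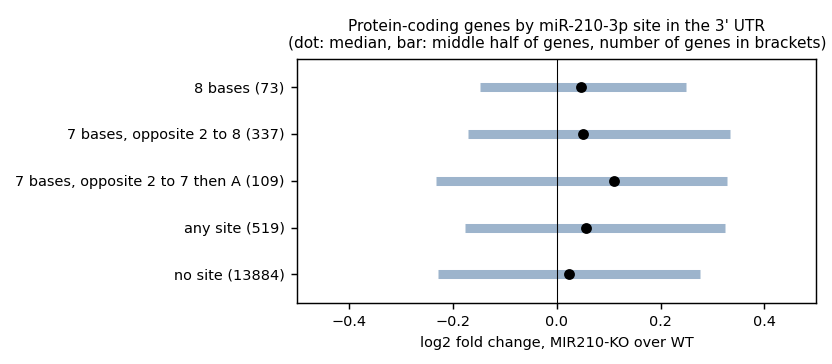
Log2 fold change of MIR210-KO over WT in normoxia (x axis) for protein-coding genes grouped by the miR-210-3p site in their 3′ UTR (y axis, number of genes in brackets). Dots are medians and bars run from the lower to the upper quartile. All 5 medians lie between 0.024 and 0.11, and the quartile ranges overlap throughout.

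Of 48 genes reported as miR-210 targets in other cells, 17 were called higher, 17 lower and 14 neither, with a median of 0.019. Leaving out chromosomes 11 and 20 and the 15 shifted windows described below, 16 were called higher and 11 lower of 40, with a median of 0.061. By the search above, 25 of the 48 held a site, of which 9 were called higher and 10 lower. The sites of 6 are shown, chosen to span classic targets and the largest differences, as read from GENCODE release 29 transcripts on GRCh38, 5′ to 3′ on the strand of the gene, with the matching bases in capitals.
ISCU (chr12:108569013-108569036, plus strand): aagagctatgagatACGCACAAta
GPD1L (chr3:32167528-32167550, plus strand): tcagctttgctgaaACGCACAtt
E2F3 (chr6:20490604-20490626, plus strand): aacaaattgtctaaACGCACAgt
NPTX1 (chr17:80470684-80470706, minus strand): cgtcgcccctgcacACGCACAcg
FGFRL1 (chr4:1025567-1025589, plus strand): ctgaaggcacacgtACGCACAca
HOXA9 (chr7:27163481-27163503, minus strand): gcctccaccatcccCGCACAAag
ISCU, the scaffold for iron-sulfur cluster assembly and a classic target, had 58, 55.8, 57.3 and 56.2 CPM in MIR210-KO libraries, against 54.4, 57.4, 56.05 and 52.2 CPM in WT libraries. The groups overlapped, and the difference was 0.048 ± 0.06 (adjusted p = 0.557). GPD1L, a glycerol phosphate dehydrogenase linked to HIF-1 stability, had 89.4, 86.8, 83.3 and 86.9 CPM in MIR210-KO libraries, against 68.2, 67.4, 69.2 and 70.4 CPM in WT libraries, higher by 0.33 ± 0.051 (adjusted p = 2.37e-06) with no overlap. The cell cycle factor E2F3, with a site of the same class, had 101, 96.7, 90.3 and 97.9 CPM in MIR210-KO libraries, against 120.2, 122, 123 and 124 CPM in WT libraries. Here MIR210-KO was lower, with a difference of -0.34 ± 0.052 (adjusted p = 2.02e-06), again with no overlap.

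Of the reported targets that were called, those with the largest differences were NPTX1, BDNF, HOXA9 and PEX16. NPTX1, a neuronal pentraxin, had 255, 253, 254 and 259.9 CPM in MIR210-KO libraries, against 63.03, 63.3, 67.3 and 62.1 CPM in WT libraries. Every MIR210-KO library stood above every WT library, and the difference was 2.00 ± 0.065 (adjusted p = 3.29e-21). The homeobox gene HOXA9 averaged 119 ± 6.74 CPM in MIR210-KO cells and 54.2 ± 2.52 CPM in WT cells, a difference of 1.14 ± 0.06 (adjusted p = 1.71e-16). BDNF, a neurotrophin, was low in both groups, with 1.06, 0.969, 0.501 and 0.719 CPM in MIR210-KO libraries, against 0.202, 0.241, 0.193 and 0.222 CPM in WT libraries, and differed by 1.91 ± 0.40 (adjusted p = 0.000175). PEX16, a peroxisome assembly factor on chromosome 11, was lower (-0.87 ± 0.10). Among mitochondrial targets, the complex II subunit SDHD was lower (-0.46 ± 0.094) and the complex IV assembly factor COX10 did not pass (0.036 ± 0.068, adjusted p = 0.705). FGFRL1, whose 3′ UTR holds 8 copies of the 7-base site, was higher by 0.49 ± 0.093 (adjusted p = 5.43e-05). Of the 5 reported targets with an 8-base site, 3 were called lower, DIMT1 (-0.20) and KCMF1 (-0.15) among them, and the other two, ISCU among them, were not. The call of KCMF1 was lost without any 1 of the 8 libraries (to -0.11 without MIR210-KO library 4), and that of DIMT1 without MIR210-KO library 2 (-0.17) or 4 or WT library 1, 2 or 4. Of 13 genes of the microRNA processing machinery, 3 were called higher and 2 lower, beside 22.6% and 21.6% of all genes tested. The Dicer partner TARBP2 was at -0.34 ± 0.075 and the silencing scaffold TNRC6C at 0.48 ± 0.082, while DROSHA (0.014), DICER1 (0.16) and AGO2 (0.14) were not called.

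Across all genes, 4511 were called higher and 4305 lower in MIR210-KO, and 1139 and 742 of these by at least 2-fold. The highest named genes were nearly silent in WT. RBP7, a cellular retinol-binding protein, had 9.11, 9.13, 10.2 and 8.35 CPM in MIR210-KO libraries, against 0.135, 0.0401, 0.0774 and 0.148 CPM in WT libraries. That is a difference of 6.43 ± 0.26 (adjusted p = 3.61e-18). Among called protein-coding genes whose higher group averaged 5 CPM or more and whose libraries did not overlap, it ranked first. DOK6, an adaptor that docks on the RET receptor, had 9.79, 8.32, 8.06 and 8.83 CPM in MIR210-KO libraries, against 0.101, 0.201, 0.232 and 0.0371 CPM in WT libraries and differed by 5.93 ± 0.25. ATP2B3, a plasma membrane calcium pump, had 11.3, 11.3, 9.85 and 12.8 CPM in MIR210-KO libraries, against 0.438, 0.0803, 0.116 and 0.185 CPM in WT libraries and differed by 5.70 ± 0.28. In all 3 genes the lowest MIR210-KO library was above 8 CPM and the highest WT library below 0.5 CPM.

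The next genes in rank were TRIM58, a ubiquitin ligase known from erythroblasts (5.57 ± 0.41), MYRIP, a linker of myosin to Rab27a on vesicles (4.98 ± 0.28), and SLC16A7, a monocarboxylate transporter (4.95 ± 0.19). They were followed by the galactosyltransferase B3GALT1 (4.81 ± 0.26), the antiviral tether BST2, the guanine nucleotide exchange factor PLEKHG4B (4.18 ± 0.21), the receptor phosphatase PTPRZ1 (4.17 ± 0.21), the ETS factor ETV4, the complement regulator SUSD4 (4.15 ± 0.16), the pseudokinase TRIB2 (4.08 ± 0.15) and LGALS3BP. Relatives of these genes moved unequally. Besides DOK6, its relative DOK5 was higher (2.58 ± 0.70). The calcium pump ATP2B2 was also higher (2.38 ± 0.52), whereas the widely expressed ATP2B1 did not pass (-0.058 ± 0.061, adjusted p = 0.469). Of 10 monocarboxylate transporter genes, 5 were called higher and 3 lower, with SLC16A5 at 1.49 ± 0.24, SLC16A6 at 1.30 ± 0.18 and SLC16A3, the lactate exporter, at -1.26 ± 0.36. The testicans SPOCK3 (3.67 ± 0.12) and SPOCK1 (2.19 ± 0.22), matrix proteoglycans, were both higher.

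At the other end, several genes active in WT were nearly lost. GSPT2, a retrogene copy of the translation termination factor GSPT1, had 0.106, 0.283, 0 and 0.16 CPM in MIR210-KO libraries, against 10.1, 10.6, 11.1 and 11.2 CPM in WT libraries, a difference of -6.25 ± 0.23 (adjusted p = 6.35e-20). AFF2, a nuclear protein of the transcription elongation family, had 0.459, 0.848, 0.626 and 0.639 CPM in MIR210-KO libraries, against 27.2, 28.4, 26.6 and 30.1 CPM in WT libraries, a difference of -5.45 ± 0.18 (adjusted p = 2.13e-21). MKRN3, an imprinted gene known for its role in the timing of puberty, had 0, 0.121, 0.0418 and 0.519 CPM in MIR210-KO libraries, against 5.33, 4.86, 4.95 and 4.89 CPM in WT libraries, a difference of -4.87 ± 0.33 (adjusted p = 6.35e-14). In each of these genes the highest MIR210-KO library was below 1 CPM. Per length, GSPT1 averaged 149 ± 6.36 TPM in MIR210-KO cells and 149 ± 2.30 TPM in WT cells, and GSPT2 0.17 ± 0.144 TPM in MIR210-KO cells and 13.6 ± 0.76 TPM in WT cells (SD, n = 4 each). GSPT1 was not called (0.044 ± 0.044, adjusted p = 0.439). Reads of so similar a pair may be split by the counting.

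BMP2, a bone morphogenetic protein, had 1.98, 1.01, 1.17 and 1.72 CPM in MIR210-KO libraries, against 12.9, 14.4, 12.6 and 13.8 CPM in WT libraries, a difference of -3.17 ± 0.16 (adjusted p = 7.45e-17). MAOA, which breaks down serotonin and noradrenaline, had 0.671, 0.848, 0.752 and 0.639 CPM in MIR210-KO libraries, against 5.49, 6.10, 6.19 and 6.19 CPM in WT libraries, a difference of -3.04 ± 0.23 (adjusted p = 2.02e-12). Its neighbour MAOB was higher, at 3.03 ± 0.232 CPM in MIR210-KO cells and 1.28 ± 0.255 CPM in WT cells (1.24 ± 0.23). The peroxisomal membrane gene PXMP4 (-3.15 ± 0.21), the helix-loop-helix factor TCF24 (-2.87 ± 0.15), the testis antigen MAGEB2 (-2.64 ± 0.14), the cell cycle inhibitor CDKN1C (-2.39 ± 0.18) and the BH3-only cell death gene BMF (-2.31 ± 0.11) were lower as well. So were the protocadherin PCDH9 (-2.19 ± 0.083), the zinc finger gene ZNF700 (-2.04 ± 0.13) and SSPO (-1.94 ± 0.19). Among relatives, the transcription factor RUNX3 was lower (-5.39 ± 0.37), with 0.0353, 0.121, 0.125 and 0.04 CPM in MIR210-KO libraries, against 3.98, 3.13, 3.25 and 3.45 CPM in WT libraries, and RUNX1 higher (0.76 ± 0.092). The proteasome assembly chaperone PSMD5 had 0.601, 0.444, 0.459 and 0.559 CPM in MIR210-KO libraries, against 4.82, 4.21, 5.03 and 4.86 CPM in WT libraries, a difference of -3.18 ± 0.17 (adjusted p = 2.97e-16). The chemokine CXCL12, with 5 counts over the MIR210-KO libraries and 58 over the WT libraries, differed by -3.36 ± 0.55.

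**Figure D2:**
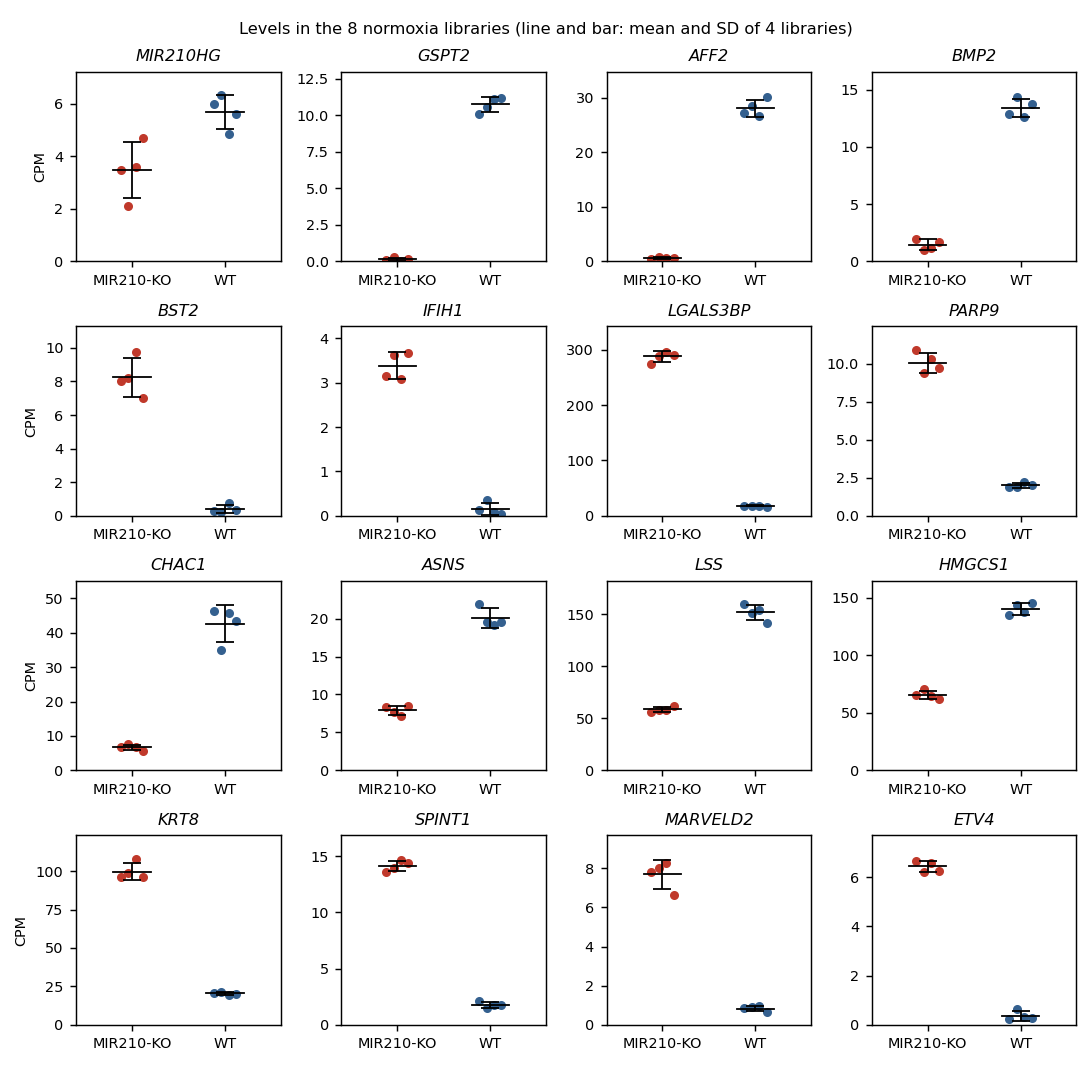
CPM (y axes, starting at 0) of 16 genes in the 4 MIR210-KO and 4 WT normoxia libraries. Points are libraries, and lines with bars are means and SD. No gene shown overlaps between the groups. MIR210HG comes closest, with 4.71 CPM in its highest MIR210-KO library and 4.83 CPM in its lowest WT library.

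Judged by abundance rather than ratio, the largest gains in CPM fell on the complex I gene MT-ND1, the ribosomal protein genes RPS15, RPS2 and RPL15, the chaperone HSP90AA1 and the actin ACTG1. MT-ND1 had 2062, 2076, 2249 and 2122 CPM in MIR210-KO libraries, against 1389, 1229.7, 1234 and 1209 CPM in WT libraries, a difference of 0.75 ± 0.083 (adjusted p = 5.81e-09). RPS15 had 2218, 2218, 2476 and 2271 CPM in MIR210-KO libraries, against 1548, 1479, 1430.0 and 1444 CPM in WT libraries, a difference of 0.64 ± 0.089 (adjusted p = 4.27e-07). The largest losses fell on the G protein gene GNAS, the lactate dehydrogenase LDHA, the actin cross-linker FLNA, RPS3, the desaturase SCD and MT-ND5, whose call was lost without MIR210-KO library 3 (-0.12) or WT library 3 or 4. GNAS, on chromosome 20, had 674, 698, 735 and 689 CPM in MIR210-KO libraries, against 1346, 1341, 1286 and 1283 CPM in WT libraries, a difference of -0.91 ± 0.068 (adjusted p = 8.05e-13). FLNA had 654, 664, 608 and 705 CPM in MIR210-KO libraries, against 1076, 1094, 1073 and 1098 CPM in WT libraries, a difference of -0.72 ± 0.085 (adjusted p = 1.77e-08). Of 85 cytosolic ribosomal protein genes, 51 were called higher and 7 lower, with a median of 0.23, and outside the shifted chromosome regions described below the counts were 51 and 1 of 75. The balance of long to short genes, the median log2 CPM of protein-coding genes of at least 8000 bases minus that of genes of at most 1500 bases among those averaging 5 CPM or more, leaned to short genes in the same libraries. It was 0.30 to 0.45 in MIR210-KO libraries, lowest in library 3, which also had the highest ribosomal protein share, against 0.45 to 0.50 in WT libraries, and its part in the result was not tested. Ribosomal protein genes have many processed pseudogenes that may share their reads. Of 78 mitochondrial ribosomal protein genes, 13 were higher and 15 lower, or 13 and 6 of 68 outside those regions.

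Interferon-stimulated genes were higher as a group. Interferon signalling runs from sensors of foreign nucleic acid through IRF and STAT factors to effector genes that block viruses and to the genes that present antigen. Of 73 members tested, 36 were called higher and 7 lower, and the median was 0.23. Outside the shifted chromosome regions, 31 of 56 were higher and 3 lower. That count keeps chromosomes 10 and 17, which leaned higher and carry IFIT3 and IFIT5 (10) and LGALS3BP (17). The rise sat in the effectors, with 26 of 38 higher, 1 lower and a median of 0.84. Of the 7 receptor and kinase genes, only IFNAR1 was called (0.23 ± 0.051). A further 18 effector genes, among them MX1, OAS1, OAS2, IFI44 and RSAD2, had too few counts to be tested.

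BST2, a membrane protein that holds budding virus on the cell, had 8.02, 8.20, 9.77 and 6.99 CPM in MIR210-KO libraries, against 0.303, 0.201, 0.735 and 0.371 CPM in WT libraries, a difference of 4.35 ± 0.23 (adjusted p = 2.1e-16). IFIH1, which encodes the RNA sensor MDA5, had 3.14, 3.64, 3.09 and 3.68 CPM in MIR210-KO libraries, against 0.135, 0.361, 0.0774 and 0.0371 CPM in WT libraries, a difference of 4.46 ± 0.38 (adjusted p = 1.99e-11). LGALS3BP, a secreted glycoprotein that binds galectins, was abundant, with 275, 289, 296 and 291 CPM in MIR210-KO libraries, against 17.8, 18.5, 18.3 and 16.6 CPM in WT libraries, a difference of 4.01 ± 0.094 (adjusted p = 3.57e-25). In all 3 genes the WT libraries stayed below every MIR210-KO library by several-fold. PARP9, an ADP-ribosyltransferase of the interferon response, had 10.9, 9.37, 10.3 and 9.75 CPM in MIR210-KO libraries, against 1.92, 1.89, 2.24 and 2.04 CPM in WT libraries, and its partner gene DTX3L, which lies head to head with it, differed by 2.07 ± 0.10 against 2.32 ± 0.14 for PARP9.

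Among the other effectors, SAMD9 (2.66 ± 0.29), the 2′-5′ oligoadenylate synthetase OAS3 (2.03 ± 0.27), C19orf66 (1.97 ± 0.38), the exonuclease ISG20 (1.82 ± 0.17) and the RNA-binding IFIT5 (1.65 ± 0.10) and IFIT3 (1.35 ± 0.42) were higher, as were UBE2L6 (1.25 ± 0.19), USP18 (1.03 ± 0.071), IFI6 (1.06 ± 0.13) and IFI27 (0.97 ± 0.12). ISG15 was not called (0.12 ± 0.10, adjusted p = 0.338). IFITM1 (0.77 ± 0.16), IFITM2 (1.23 ± 0.16) and IFITM3 (0.62 ± 0.20), near-identical genes that can share reads, were higher although they lie on chromosome 11 close to MIR210, where most genes were lower. Upstream, the RNA sensor DDX58 (0.65 ± 0.16) and TMEM173 (0.72 ± 0.11, which encodes STING) were higher. MAVS, the adaptor of DDX58, lies on chromosome 20 and was lower (-0.49 ± 0.072). Downstream of the receptors, STAT2 was lower (-0.30 ± 0.065), and IRF1 (0.47 ± 0.15) was higher. Antigen presentation split. The trimming peptidase ERAP2 (3.06 ± 0.21), the class I light chain B2M (0.55 ± 0.08), HLA-B (0.35 ± 0.068) and NLRC5, the factor that drives class I genes (1.85 ± 0.18), were higher, whereas HLA-E (-0.66 ± 0.055) and the peptide transporter TAP2 (-0.37 ± 0.069) were lower. HLA-E and TAP2 lie in a window of chromosome 6 with a median of -0.54, and reads of HLA genes can be split between copies.

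The interferon-stimulated response element, the site bound by IRF and STAT complexes, was searched as GAAA, any 2 bases and GAAA again, on both strands, in the 300 bases around each start (250 before, 50 after). It was found in 40 of 71 promoters of the list that RefSeq gives. Genes called higher held it in 20 of 30, genes called lower in 2 of 5 and genes tested and not called in 11 of 22. Of all 27305 promoters, 3.65% held it. The promoters of BST2 and IFIH1 are shown because these genes had the largest differences of the list with such a match, from the table for GRCh38.p14, on the strand of the gene, with the matches in capitals and overlapping matches merged.
BST2 (chr19:17405581-17405880, minus strand): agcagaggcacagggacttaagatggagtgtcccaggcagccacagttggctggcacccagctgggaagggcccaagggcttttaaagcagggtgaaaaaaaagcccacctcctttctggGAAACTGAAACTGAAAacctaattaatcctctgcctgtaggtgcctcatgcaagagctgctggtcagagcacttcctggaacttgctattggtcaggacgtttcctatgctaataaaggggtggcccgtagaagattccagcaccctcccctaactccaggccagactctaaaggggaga
IFIH1 (chr2:162318635-162318934, minus strand): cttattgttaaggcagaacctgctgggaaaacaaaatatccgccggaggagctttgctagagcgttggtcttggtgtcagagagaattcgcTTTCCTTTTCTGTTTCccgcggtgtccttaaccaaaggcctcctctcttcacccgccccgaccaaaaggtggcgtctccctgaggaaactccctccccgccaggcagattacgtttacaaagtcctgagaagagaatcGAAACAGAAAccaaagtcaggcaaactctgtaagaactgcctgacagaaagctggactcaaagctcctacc

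The integrated stress response moved the other way. Amino acid shortage, endoplasmic reticulum stress and other insults activate kinases that phosphorylate eIF2alpha, which raises translation of the factor ATF4, and ATF4 in turn switches on genes of amino acid supply and of feedback. Of 60 genes, 43 were called lower and 4 higher, and the median was -0.32. Outside the shifted chromosome regions 37 of 54 were lower and 4 higher. All 6 feedback regulators were lower, as were 11 of 15 genes of amino acid and one-carbon synthesis, 9 of 11 amino acid transporters and 9 of 12 tRNA synthetases.

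CHAC1, an ATF4 target that cleaves glutathione, had 6.89, 7.51, 6.64 and 5.67 CPM in MIR210-KO libraries, against 46.4, 34.9, 45.8 and 43.4 CPM in WT libraries. The groups did not overlap, and the difference was -2.67 ± 0.11 (adjusted p = 3.75e-19). ASNS, asparagine synthetase, had 8.34, 7.67, 7.22 and 8.43 CPM in MIR210-KO libraries, against 21.98, 19.5, 19.2 and 19.5 CPM in WT libraries, a difference of -1.34 ± 0.11 (adjusted p = 1.03e-11). PCK2, the mitochondrial carboxykinase, had 32.1, 31.6, 35.7 and 34.2 CPM in MIR210-KO libraries, against 98.9, 85.1, 89.3 and 86.1 CPM in WT libraries, a difference of -1.43 ± 0.081 (adjusted p = 1.29e-15). The factor ATF4 itself had 821, 853, 850.4 and 839.7 CPM in MIR210-KO libraries, against 1037, 977, 1008 and 991 CPM in WT libraries, a smaller difference of -0.25 ± 0.062 (adjusted p = 0.00102), without overlap. ATF3 (-1.27 ± 0.071) and DDIT3, the factor CHOP (-0.81 ± 0.13), were lower too.

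Further members named by role were the mTOR inhibitors DDIT4 (-1.16 ± 0.094) and SESN2 (-0.998 ± 0.068), the cystine importer SLC7A11 (-1.06 ± 0.088), the glycine importer SLC6A9 (-1.07 ± 0.074) and the pseudokinase TRIB3 (-0.45 ± 0.073), which lies on chromosome 20. Of the synthetases, AARS (-0.57 ± 0.051) and CARS, on chromosome 11 (-0.71 ± 0.062), differed most, while EPRS (-0.10), IARS (-0.09) and TARS (-0.11) were not called. The eIF2alpha kinase genes EIF2AK3 (0.014) and EIF2AK4 (-0.014) were not called, and EIF2AK1 was higher (0.28 ± 0.043). GDF15, a secreted stress marker, was not called (0.64 ± 0.30, adjusted p = 0.0883). The unfolded protein response of the endoplasmic reticulum did not share the direction, with 4 of 29 genes higher, 10 lower and a median of -0.00081. Outside the shifted regions 4 of its 25 genes were higher and 6 lower. Its main chaperone HSPA5 was not called (0.027 ± 0.056, adjusted p = 0.731), the degradation factors DERL3 (-1.20 ± 0.16) and HERPUD1 (-0.70 ± 0.065) were lower, and 4 of the 10 lower members, ATF6B, HYOU1, PDIA4 and SYVN1, lie in shifted regions.

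The C/EBP-ATF response element through which ATF4 acts was searched as TGATGNAA on both strands. It stood in 11 of the 34 promoters of list genes called lower and in 1 of the 3 of those called higher. Of list genes not called, 3 of 11 held it, as did 3.67% of all promoters. The promoters of CHAC1 and ASNS are shown as those of 2 of the 3 list genes with the largest differences, with the match in capitals.
CHAC1 (chr15:40953221-40953520, plus strand): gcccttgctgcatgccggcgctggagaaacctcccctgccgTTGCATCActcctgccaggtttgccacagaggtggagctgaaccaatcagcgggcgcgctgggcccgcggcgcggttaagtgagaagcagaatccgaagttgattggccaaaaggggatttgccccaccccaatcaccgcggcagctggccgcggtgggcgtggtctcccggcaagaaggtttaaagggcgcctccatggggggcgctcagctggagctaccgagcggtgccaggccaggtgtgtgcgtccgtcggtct
ASNS (chr7:97872359-97872658, minus strand): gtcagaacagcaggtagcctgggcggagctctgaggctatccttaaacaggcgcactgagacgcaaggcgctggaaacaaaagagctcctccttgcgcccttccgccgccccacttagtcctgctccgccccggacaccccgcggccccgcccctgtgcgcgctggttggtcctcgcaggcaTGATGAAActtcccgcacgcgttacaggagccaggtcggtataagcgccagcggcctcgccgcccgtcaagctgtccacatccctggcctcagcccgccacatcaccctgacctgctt

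Cholesterol synthesis was lower. SREBP2, encoded by SREBF2, drives the whole pathway when sterols fall short. Of 20 enzyme genes, 16 were called lower and 1 higher, with a median of -0.40, and of all 28 members 19 and 2, or 16 and 2 of 24 outside the shifted regions. LSS, lanosterol synthase, had 56.1, 58.2, 57.9 and 61.6 CPM in MIR210-KO libraries, against 160.1, 151, 154 and 142 CPM in WT libraries, a difference of -1.38 ± 0.068 (adjusted p = 5.69e-17). HMGCS1, which makes HMG-CoA, had 65.3, 70.8, 64.3 and 62.4 CPM in MIR210-KO libraries, against 135, 143, 137 and 146 CPM in WT libraries, a difference of -1.09 ± 0.057 (adjusted p = 1.71e-16). IDI1 (-1.14 ± 0.079), DHCR7 on chromosome 11 (-0.98 ± 0.068) and SQLE (-0.75 ± 0.049) were lower too. The SREBP retention factor INSIG1, itself a target of the pathway, had 113, 105, 114 and 109.6 CPM in MIR210-KO libraries, against 233, 244, 224 and 238 CPM in WT libraries, a difference of -1.09 ± 0.049 (adjusted p = 5.04e-18). It lies in the last window of chromosome 7, whose median was -0.71. SREBF2 was lower (-0.42 ± 0.055), and NPC1L1, the intestinal sterol importer, was higher (1.55 ± 0.23). The sterol regulatory element, searched as TCACNCCAC, was found in 1 of 22 list promoters, that of SREBF2, and in 1.15% of all promoters.

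Fatty acid synthesis was mixed, with 12 of 23 lower and 6 higher. The desaturases FADS2 (-1.19 ± 0.065) and FADS1 (-0.98 ± 0.048) and the liver X receptor gene NR1H3 (-1.11 ± 0.11) lie on chromosome 11, and the acetate enzyme ACSS2 (-0.95 ± 0.067) on chromosome 20. Outside the shifted regions 8 of 18 were lower and 6 higher. SCD, which makes oleate, had 933, 936, 904 and 911 CPM in MIR210-KO libraries, against 1292, 1301, 1234 and 1308 CPM in WT libraries, a difference of -0.48 ± 0.046 (adjusted p = 2.58e-10). FASN, the fatty acid synthase, was not called (0.17 ± 0.10, adjusted p = 0.16), and the elongase ELOVL7 was higher (1.02 ± 0.10).

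HIF targets and oxygen-sensing genes, counted together, were more often lower than higher in MIR210-KO cells kept in normoxia. Of 62 tested, 31 were called lower and 16 higher, with a median of -0.16, which was -0.067 outside the shifted regions. The 9 oxygen-sensing genes, HIF subunits among them, gave 4 lower and 3 higher. In the glycolytic part, LDHA had 809, 817, 843 and 780.1 CPM in MIR210-KO libraries, against 1323, 1321, 1188 and 1309.9 CPM in WT libraries, a difference of -0.66 ± 0.051 (adjusted p = 2.35e-12), and lies on chromosome 11. The fructose-bisphosphate aldolase ALDOC (-1.03 ± 0.089), the lactate exporter SLC16A3 (-1.26 ± 0.36) and the pyruvate dehydrogenase kinase PDK1 (-0.71 ± 0.061) were lower, whereas ENO2 (1.39 ± 0.06), PGAM1 (0.38 ± 0.053) and TPI1 (0.21 ± 0.063) were higher and PKM (-0.052) and ALDOA (-0.025) were not called. The secreted glycoprotein STC1 had 0.283, 0.0808, 0.0418 and 0.16 CPM in MIR210-KO libraries, against 1.75, 1.73, 1.12 and 1.71 CPM in WT libraries, a difference of -3.39 ± 0.29 (adjusted p = 1.56e-11) at low counts. The angiogenic factor VEGFA had 69.7, 73.6, 69.6 and 68.8 CPM in MIR210-KO libraries, against 107, 109.6, 102 and 105 CPM in WT libraries, a difference of -0.59 ± 0.054 (adjusted p = 9.43e-11). Of the HIF subunits, EPAS1, which encodes HIF-2alpha, averaged 26.7 ± 0.603 CPM in MIR210-KO cells and 54.5 ± 3.59 CPM in WT cells (-1.03 ± 0.058), HIF1A was higher (0.41 ± 0.06) and HIF3A, under 0.6 CPM in every library, was higher by 2.03 ± 0.64. The growth suppressor NDRG1 (-1.07 ± 0.061) and the matrix oxidase LOXL2 (-1.25 ± 0.10) were lower, and CA9 had too few counts to be tested.

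Junction genes of epithelia were more often higher than lower, and keratin and desmosome genes split. Of 37 members tested, 20 were called higher and 5 lower, with a median of 0.41, and outside the shifted regions 20 of 30 were higher and 1 lower. By role, 9 of 14 tight junction genes were higher and 0 lower. Of 7 keratin and desmosome genes 3 were higher and 3 lower, or 3 and 1 of 5 outside the shifted regions. MARVELD2, a protein of tricellular tight junctions, had 7.81, 8.04, 8.27 and 6.63 CPM in MIR210-KO libraries, against 0.843, 0.883, 0.967 and 0.63 CPM in WT libraries, a difference of 3.21 ± 0.17 (adjusted p = 2.67e-16). SPINT1, a membrane protease inhibitor of epithelia, had 13.6, 13.97, 14.7 and 14.3 CPM in MIR210-KO libraries, against 2.16, 1.49, 1.74 and 1.78 CPM in WT libraries, a difference of 2.97 ± 0.14 (adjusted p = 1.44e-17). KRT8, a keratin of simple epithelia, had 96.05, 98.9, 108 and 96.1 CPM in MIR210-KO libraries, against 20.8, 21.4, 19.6 and 19.7 CPM in WT libraries, a difference of 2.29 ± 0.072 (adjusted p = 1.58e-21). In these 3 genes the groups stood apart by at least 4-fold between means.

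E-cadherin, encoded by CDH1, was higher by 1.30 ± 0.10, P-cadherin CDH3 by 2.49 ± 0.16, the adhesion molecule EPCAM by 1.80 ± 0.22 and the tight junction protein CLDN1 by 2.28 ± 0.31. The protease inhibitor SPINT2 was higher by 2.07 ± 0.09, and the keratin partner KRT18 by 0.71 ± 0.087. N-cadherin, encoded by CDH2 (-0.82 ± 0.049), and the desmosomal cadherins DSG2 (-1.21 ± 0.062) and DSC2 (-1.38 ± 0.065) were lower, and all 3 lie in the shifted windows of chromosome 18. Mesenchymal and matrix genes split, with 10 of 28 higher and 8 lower, beside 22.6% and 21.6% of all genes tested. The fibrillar collagen COL3A1 had 3.82, 4.48, 4.47 and 3.48 CPM in MIR210-KO libraries, against 14.8, 12.8, 14.97 and 15.6 CPM in WT libraries, a difference of -1.84 ± 0.10 (adjusted p = 5.46e-16). The repressor SNAI2 (-1.64 ± 0.081) and fibronectin FN1 (-1.14 ± 0.085) were lower, whereas the basement membrane collagens COL4A1 (1.27 ± 0.057) and COL4A2 (1.35 ± 0.07), in the higher windows of chromosome 13, and vimentin VIM (0.57 ± 0.071) were higher. Markers of squamous or glandular epithelium stayed low, with 8 genes summing to 1.59 to 2.26 CPM in MIR210-KO libraries and 1.51 to 2.43 CPM in WT libraries, and KRT5, KRT14 and TP63 are among them.

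HEK293 cells are known to express neuronal genes, and these were mostly higher, with 19 of 30 called higher, 5 lower and a median of 0.64. Outside the shifted regions the counts were 17 and 3 of 26. MAP2, a protein of dendritic microtubules, had 3.29, 2.95, 3.38 and 3.52 CPM in MIR210-KO libraries, against 0.371, 0.803, 0.541 and 0.704 CPM in WT libraries, a difference of 2.45 ± 0.21 (adjusted p = 2.6e-11). The neurofilament genes NEFM (0.86 ± 0.086), NEFL (0.65 ± 0.046) and INA (1.45 ± 0.077) were higher together, as were DPYSL3 (2.10 ± 0.11), an axon guidance phosphoprotein, SNAP25 (1.75 ± 0.41) and the zinc finger factor INSM1 (1.78 ± 0.11). STMN3, on chromosome 20, was lower (-1.60 ± 0.08). Of 24 nephron genes, 10 were higher and 5 lower, beside 22.6% and 21.6% of all genes tested. The podocyte genes SYNPO (1.29 ± 0.10) and PODXL (1.11 ± 0.056), the tubular receptor CUBN (1.05 ± 0.23) and the integrin ITGA8 (1.01 ± 0.083) were higher, and the early kidney factors LHX1 (-1.18 ± 0.13) and EYA1 (-0.67 ± 0.092) lower.

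**Figure D3:**
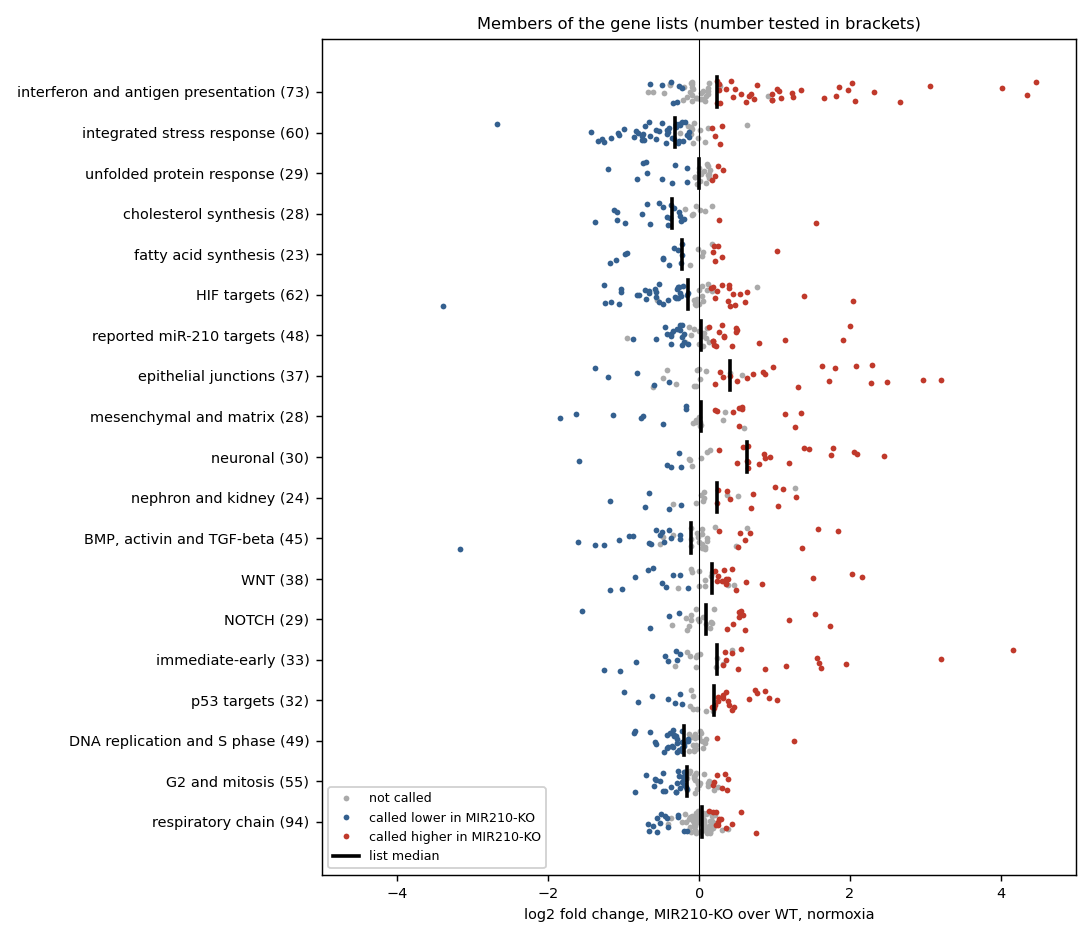
Log2 fold change of MIR210-KO over WT in normoxia (x axis) for the tested members of 19 gene lists (y axis). Each dot is a gene, coloured by its call, and black lines are list medians. The medians of the integrated stress response (-0.32) and cholesterol synthesis (-0.36) lie left of 0, and those of epithelial junctions (0.41), neuronal (0.64) and interferon genes (0.23) lie right of it.

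BMP ligands act through SMAD1, SMAD5 and SMAD9 to raise the ID genes and the inhibitors SMAD6 and SMAD7. Of 10 SMAD and target genes 5 were called lower and 5 not called, and of 16 ligands 8 were lower and 4 higher. Beside BMP2, ID1, a helix-loop-helix inhibitor on chromosome 20, had 4.17, 4.40, 4.30 and 5.87 CPM in MIR210-KO libraries, against 15.2, 15.9, 13.96 and 12.1 CPM in WT libraries, a difference of -1.61 ± 0.13 (adjusted p = 1.31e-11). ID4 (-1.38 ± 0.064), ID3 (-0.87 ± 0.086), SMAD6 (-0.93 ± 0.073) and SMAD7 (-0.64 ± 0.086) were lower, and ID2 was not called (-0.11 ± 0.069, adjusted p = 0.225). The activin gene INHBB (1.84 ± 0.12), the activin trap FST (1.57 ± 0.31) and TGFB1 (1.36 ± 0.10) were higher. Of all 45 members, 17 were lower and 8 higher, and of 11 receptors 1 and 2.

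Immediate-early and related signalling genes were more often higher than lower, with 14 and 8 of 33 called. The 18 listed as transcription factors split, with 5 higher and 5 lower. The lean lay in the other 15, ETV4 among them, with 9 higher and 3 lower. ETV4 had 6.68, 6.22, 6.60 and 6.27 CPM in MIR210-KO libraries, against 0.236, 0.642, 0.309 and 0.259 CPM in WT libraries, a difference of 4.17 ± 0.29 (adjusted p = 2.36e-13). Its relative ETV5 had 3.32, 3.51, 3.93 and 3.80 CPM in MIR210-KO libraries, against 0.404, 0.401, 0.464 and 0.297 CPM in WT libraries, a difference of 3.20 ± 0.26 (adjusted p = 7.1e-12). The feedback genes DUSP5 (1.56 ± 0.11) and DUSP2 (1.59 ± 0.22) and the synaptic immediate-early gene ARC (1.61 ± 0.22) were higher, whereas FOS (-1.05 ± 0.23) and SPRY2 (-0.45 ± 0.079) were lower. 

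NOTCH ligands and targets leaned higher, with 4 of 6 and 5 of 8 called higher and 0 lower. JAG2 (1.19 ± 0.10), DLL1 (0.61 ± 0.079) and HES5 (1.73 ± 0.39) were among them. Of 11 processing or cofactor genes 1 was higher, the glycosyltransferase MFNG (1.53 ± 0.37), and 4 were lower, and 0 of 4 receptors were called. The whole list gave 10 higher and 4 lower of 29, beside 22.6% and 21.6% of all genes tested. Of 38 WNT genes 16 were higher and 10 lower, or 15 and 5 of the 32 outside the shifted regions. The inhibitor SFRP1 (2.16 ± 0.088), the ligand WNT7B (2.03 ± 0.24) and the ligase RNF43 (1.502 ± 0.10) stood highest in that list and the receptor LGR4 on chromosome 11 lowest (-1.18 ± 0.071), and the feedback gene AXIN2 was not called (0.076 ± 0.088). In the retinoid pathway, where RBP7 was found, the synthesis enzyme ALDH1A2 (1.32 ± 0.048) and the degrading enzyme CYP26A1 (1.17 ± 0.14) were higher and the retinol receptor STRA6 lower (-1.85 ± 0.31), with 8 of 18 genes higher and 6 lower.

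Genes of DNA replication were modestly lower, with 28 of 49 called lower, 2 higher and a median of -0.21, or 20 and 1 of 40 and -0.15 outside the shifted regions. POLA2 (-0.86 ± 0.084) and RRM1 (-0.58 ± 0.045) lie on chromosome 11, MYBL2 (-0.86 ± 0.071) on chromosome 20, and the higher member TFDP1 (1.25 ± 0.049) in a higher window of chromosome 13. CCNE1, cyclin E, had 23.7, 26.8, 24.4 and 25.6 CPM in MIR210-KO libraries, against 39.5, 37.05, 40.1 and 34.9 CPM in WT libraries, a difference of -0.59 ± 0.072 (adjusted p = 3.08e-08). Of 55 mitotic genes 26 were lower and 7 higher, with the kinase WEE1 of chromosome 11 lowest (-0.85 ± 0.052), and MKI67 (0.36 ± 0.074) and the kinesin KIF11 (0.38 ± 0.057), both of chromosome 10, highest.

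Genes listed as p53 targets or regulators were more often higher, with 18 of 32 higher and 7 lower. The lean was not shared by all roles. Of the 13 cell death genes 11 were higher and 2 lower, and of the 13 arrest or repair genes 4 were higher and 5 lower, with a median of -0.083. The death receptor FAS (0.92 ± 0.083), the RNA-binding ZMAT3 (0.87 ± 0.086), the receptor EDA2R (0.76 ± 0.088) and the BH3-only gene PMAIP1 (0.74 ± 0.076) rose together, while CDKN1A, the arrest gene p21, was not called (-0.083 ± 0.062, adjusted p = 0.3) and SESN2 (-0.998 ± 0.068) and DDB2 on chromosome 11 (-0.81 ± 0.064) were lower. Replication-dependent histone genes, whose messengers mostly lack a poly(A) tail and share near-identical copies, gave 13 calls of a higher level among 32 tested, and the other 19 missed the threshold. Their median was 0.60. Of 30 genes of the MYC network and ribosome biogenesis 16 were higher and 4 lower, with MYCN at 1.51 ± 0.33 and NOLC1 at 0.63 ± 0.044. The respiratory chain, a classic field of miR-210, showed 12 of 94 higher and 14 lower with a median of 0.041, and of the 14 lower 9 lay in shifted regions, among them NDUFS8 (-0.68 ± 0.076) and COX8A (-0.67 ± 0.088).

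Single genes stood out in other lists. The quinone reductase NQO1, an NRF2 target, had 19.8, 20.2, 20.96 and 19.5 CPM in MIR210-KO libraries, against 5.60, 4.66, 4.68 and 4.52 CPM in WT libraries, a difference of 2.04 ± 0.10 (adjusted p = 3.42e-17). Of 33 genes listed for NRF2, its redox targets and glutathione, 11 were higher and 12 lower. CHAC1, described above as an ATF4 target, is counted among the lower. Outside the shifted regions 11 genes of this list were higher and 5 lower of 26. Of 24 imprinted genes, 7 were higher and 8 lower, and of the 14 outside the shifted regions 6 were higher and 2 lower. Beside MKRN3 and CDKN1C the potassium channel KCNQ1 was lower (-1.91 ± 0.26) and PHLDA2, in the same cluster of chromosome 11, higher (1.83 ± 0.18). The calcitonin receptor CALCR was higher (2.70 ± 0.59), under 0.7 CPM in every library. Cancer-testis antigens of the X chromosome switched in both directions. MAGEA10 had 1.77, 1.66, 1.75 and 1.44 CPM in MIR210-KO libraries, against 0, 0, 0.0387 and 0 CPM in WT libraries, with 1 count in WT, a ratio of 171 with a 95% counting interval of 30.3 to 6794. CSAG3 had 1 count over the MIR210-KO libraries and 118 over the WT libraries, so that WT was higher by a ratio of 106 (95% counting interval 18.6 to 4207). These intervals cover counting error only, and close copies in this family can share reads.

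Among long non-coding genes, RNF144A-AS1 had 221 counts over the MIR210-KO libraries and 2 over the WT libraries, a ratio of 112 (95% counting interval 30.6 to 931). KC877982.1 had 11.3, 10.9, 13.5 and 11.9 CPM in MIR210-KO libraries, against 0.944, 0.843, 0.735 and 0.89 CPM in WT libraries, a difference of 3.80 ± 0.21 (adjusted p = 6.59e-16). HOXB-AS4 (3.24 ± 0.17) and AL365361.1 (3.22 ± 0.29) were higher as well. AC016205.1 (-2.50 ± 0.16), AC011815.1 (-2.20 ± 0.15) and GATA6-AS1 (-1.80 ± 0.17) were lower, all on chromosome 18, and AC106881.1 (-2.09 ± 0.26) on chromosome 4. Of the genes named above with their library values, DOK6, AFF2, MKRN3, RUNX3, PSMD5, GNAS, FLNA, PARP9, ASNS, PCK2, LSS, HMGCS1, VEGFA, KRT8, SPINT1, COL3A1, MAP2, ETV4, ETV5, NQO1, BDNF, GPD1L, E2F3 and TMEM80 overlap a gene of the other strand, and their counts are uncertain in that respect, because how strand was handled in counting is not given in the sources used here.

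Position on the chromosomes went with the direction of many genes. On chromosome 11, which carries MIR210, 661 of 1043 genes tested were called lower and 56 higher, and the median was -0.50. On chromosome 20, 321 of 499 were lower and 24 higher, with a median of -0.46. Chromosome 10 leaned the other way, with 382 of 792 higher, 72 lower and a median of 0.27. On chromosome 17, 389 of 1226 were higher and 182 lower, and its windows from 50 to 80 Mb had medians of 0.32 to 0.36. Chromosomes 10 and 17 had no window past the threshold given below and stay in the counts outside the shifted regions. Those counts therefore leave out mostly lower genes and keep regions that leaned higher. A log2 value of -0.50 on chromosome 11 is a median over genes of different function, and single genes there went against it, among them IFITM1, CCND1 (0.33 ± 0.05) and BDNF.

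**Figure D4:**
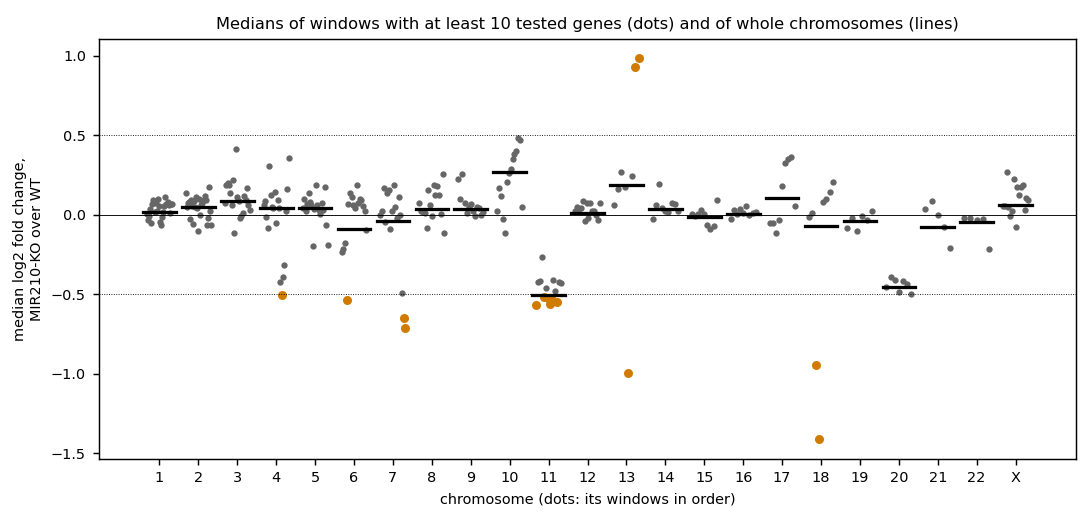
Median log2 fold change of MIR210-KO over WT (y axis) for 298 windows of 10 Mb with at least 10 tested genes (dots, in order along each chromosome on the x axis) and for whole chromosomes (lines). Orange dots are the 15 windows beyond the dotted lines at 0.5 and -0.5. Chromosomes 11 and 20 lie low along their whole length. Chromosomes 7 and 18 hold a low stretch that stands apart, and chromosome 13 holds a low stretch and a high one.

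In windows of 10 Mb, 15 of 298 had a median of at least 0.5 in size, 13 low and 2 high. The lowest was on chromosome 18 from 30 to 40 Mb, with 40 of 49 genes called lower, 9 not called and a median of -1.41. Its most abundant genes RPRD1A (-1.38 ± 0.052), DSG2 (-1.21 ± 0.062) and ZNF24 (-1.48 ± 0.07) were all lower. Per-library medians of the window, as differences from the WT mean, were -1.22 to -1.15 in the MIR210-KO libraries and -0.042 to 0.029 in the WT libraries. The window before it had a median of -0.94, with 31 of 39 lower. On chromosome 13 the window from 70 to 80 Mb had a median of -0.996, while those from 100 and from 110 Mb had 0.93 and 0.98, with 13 of 19 and 30 of 45 genes higher. The most abundant genes from 110 Mb were TFDP1 (1.25 ± 0.049), COL4A2 (1.35 ± 0.07) and the lysosomal gene LAMP1 (1.13 ± 0.055). On chromosome 7 the windows from 140 and from 150 Mb had -0.65 and -0.71.

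Less far from 0 were the 6 windows of chromosome 11 past the threshold, whose medians ran from -0.57 to -0.52, and 1 window each of chromosomes 6 (-0.54) and 4 (-0.50). In all 15 windows the 4 MIR210-KO libraries lay together and apart from the 4 WT libraries. Neighbouring genes are not independent, and no test was made. Chromosomes 11 and 20 and the named windows hold 2079 of the genes tested, and 1309 of these were called lower and 144 higher. Among the other 17873 genes, 2996 were lower and 4367 higher, with a median of 0.039.

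**Figure D5:**
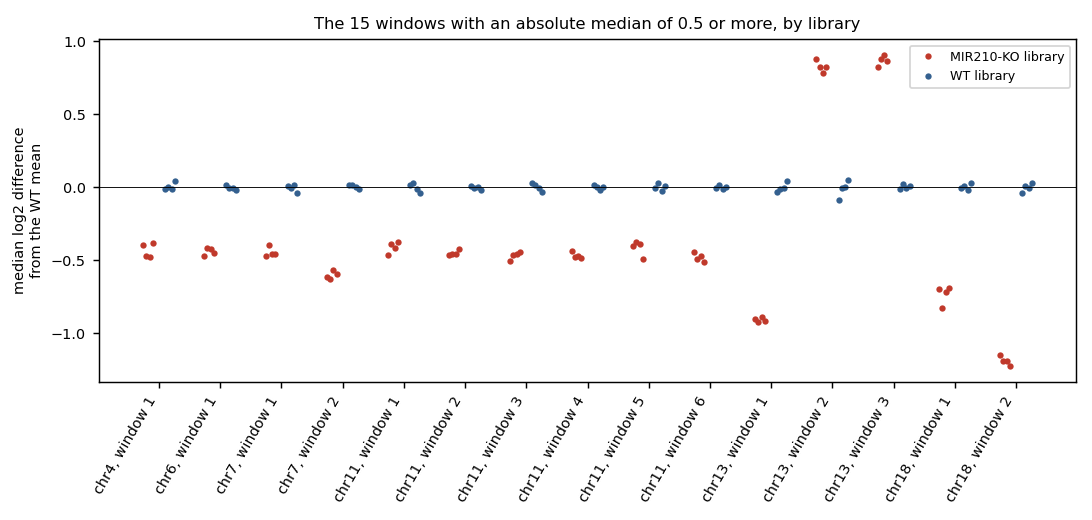
Median log2 difference from the WT mean (y axis) in each MIR210-KO and WT library for the 15 windows of 10 Mb with a median of at least 0.5 in size (x axis, numbered along each chromosome). In each window the 4 MIR210-KO points lie together, outside the range of the 4 WT points.

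The same genotypes were also compared at 1% oxygen. RBP7 differed by 5.51 ± 0.23 in hypoxia and 6.43 ± 0.26 in normoxia, BST2 by 4.35 ± 0.20 and 4.35 ± 0.23, and GSPT2 by -7.06 ± 0.25 and -6.25 ± 0.23. The interaction, which tests hypoxia minus normoxia in 1 fit, was called for 26.5% of all genes. For MIR210HG it was 0.83 ± 0.19 (adjusted p = 0.00208), and the transcript averaged 20.7 ± 1.46 CPM in hypoxic MIR210-KO cells and 19.1 ± 1.72 CPM in hypoxic WT cells (SD, n = 4 each). For CHAC1 it was 0.71 ± 0.15 (adjusted p = 0.000534), with -1.96 ± 0.10 in hypoxia, and for ETV4 -2.05 ± 0.41 (adjusted p = 0.000295), with 2.12 ± 0.25 in hypoxia, so that both differences were smaller at 1% oxygen. BMF, at -2.31 ± 0.11 in normoxia, differed by -0.60 ± 0.091 in hypoxia, an interaction of 1.71 ± 0.14 (adjusted p = 1.59e-10). Among lists, the interaction was called for 25 of 29 genes of the unfolded protein response and 45 of 60 of the integrated stress response, all 12 tRNA synthetases included, and for 6 of 85 cytosolic ribosomal protein genes. HSPA5, which differed by 0.027 ± 0.056 in normoxia, differed by -2.79 ± 0.06 in hypoxia, an interaction of -2.81 ± 0.081 (adjusted p = 3.78e-22). TRIB3 differed by -2.64 ± 0.074 in hypoxia against -0.45 ± 0.073 in normoxia, and HERPUD1 by -2.73 ± 0.067 against -0.70 ± 0.065. The oxygen levels were deposited as separate tables, and oxygen and table cannot be told apart.

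Set against the other edited line in normoxia, MIR210-KO differed from MIR210HG-KO at 49.2% of all genes. LGALS3BP averaged 288 ± 9.21 CPM in MIR210-KO cells and 17.8 ± 3.54 CPM in MIR210HG-KO cells (SD, n = 4 each), a difference of 4.01 ± 0.094 (adjusted p = 1.91e-25). AFF2 averaged 0.643 ± 0.159 CPM in MIR210-KO cells and 21.5 ± 0.703 CPM in MIR210HG-KO cells, a difference of -5.07 ± 0.18 (adjusted p = 4.59e-21). CHAC1 averaged 6.68 ± 0.764 CPM in MIR210-KO cells and 3.50 ± 0.333 CPM in MIR210HG-KO cells, with MIR210-KO higher by 0.94 ± 0.13 (adjusted p = 4.96e-07). BMP2 averaged 1.47 ± 0.455 CPM in MIR210-KO cells and 2.26 ± 0.555 CPM in MIR210HG-KO cells, a difference of -0.60 ± 0.19 (adjusted p = 0.0103). Thus LGALS3BP and AFF2 stood apart from both other lines, whereas CHAC1 and BMP2 had low levels in both edited lines.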

How the data were processed

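Gene-level read counts per library were deposited by the authors as whole numbers. Per the submitters' processing notes, the tools were STAR 2.6.1d and featureCounts 1.5.0-p3 with the GRCh38 build, and DESeq2 1.20.0 and edgeR 3.24.3 are also listed there, with no role given. The strand setting is not given in the sources used here. Genes that overlap on opposite strands, close copies and pseudogenes may therefore share reads.

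All 24 libraries (6 groups of 4) entered 1 edgeR 4.0.16 quasi-likelihood fit in R 4.3.3 with a mean per group, TMM scaling and edgeR's filter on low counts, which left 19952 genes. The filter ran over all groups, so that a gene nearly silent in WT could pass through another group. Benjamini-Hochberg adjustment ran over all of them, and genes under an adjusted p of 0.05 were called. Levels are TMM-scaled CPM. TPM was computed from the deposited gene lengths where levels of 2 genes are compared. The fit was tested on simulated data. Seed sites were searched in 1 transcript per gene, the one with the longest coding part. Lists, chromosomes and windows were described without a test. Gene lists outside the shifted regions were counted as an alternative chosen after seeing the data. Other settings were DESeq2 1.42.0, other scalings, filters and sample sets, and leaving out each library.

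The members and gene lists were chosen with earlier results of these data known. Named were MIR210 and its host gene, and the called protein-coding genes at both ends of the log2 fold changes, 14 at each, provided the higher group averaged 5 CPM or more and the libraries did not overlap. The rule added the 6 largest gains and losses in CPM, up to 4 called members per list with the largest change, family members, tested genes within 200 kb of MIR210, the 3 most abundant genes of each shifted window, and 4 long non-coding genes each way with at least 2 CPM. Not every gene the rule gives is printed, and further list members were named for their roles after their values were seen. Libraries held 25960367 to 31547054 counts in the 2 groups compared, and genes of lowest CPM are measured with least precision. A few list members are counted but not reported by name here.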

Additional observations from a re-analysis of the deposited data

Results flagged for a closer look

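For 102 of the 258 genes named above and tested, the difference between MIR210-KO and WT changed with oxygen, by an edgeR test of the interaction adjusted over all genes. The share over all genes tested was 26.5%. The balance of long to short genes ran from 0.59 to 1.27 in hypoxia WT libraries and from 0.85 to 1.13 in hypoxia MIR210-KO libraries. Its part in these values was not tested. Values here are the log2 difference in hypoxia minus that in normoxia. In the integrated stress response this difference of differences was -0.46 for ATF4, -1.94 for ATF3, -1.47 for DDIT3, -2.19 for TRIB3, 0.71 for CHAC1, 0.49 for DDIT4, -0.70 for SLC7A11 and -1.12 for EIF2AK3. For tRNA synthetases it was -0.25 for AARS, -0.81 for CARS, -0.33 for EPRS, -0.59 for IARS and -0.82 for TARS. For genes of the unfolded protein response it was -2.81 for HSPA5, -2.03 for HERPUD1, -1.12 for HYOU1, -0.88 for PDIA4, -0.83 for SYVN1 and -0.68 for DERL3. HIF-related genes had -0.88 for ENO2, 0.31 for ALDOC, 0.24 for PGAM1, 0.30 for PKM, 0.24 for TPI1, -0.69 for VEGFA, 1.11 for STC1, -0.62 for NDRG1, 0.65 for LOXL2, 0.47 for EPAS1 and -0.31 for HIF1A. Immediate-early and related signalling genes had negative values by this measure, with -2.05 for ETV4, -3.34 for ETV5, -2.92 for ARC, -1.47 for DUSP5, -0.90 for SPRY2 and -0.97 for FOS. Interferon and antigen genes had 0.64 for LGALS3BP, -0.45 for IFIT5, -1.99 for ISG20, -0.75 for DDX58, 0.56 for TMEM173 and 0.51 for STAT2. In lipid synthesis the values were 0.44 for LSS, 0.32 for SQLE, -0.36 for INSIG1, 0.33 for SREBF2 and 0.20 for SCD. Epithelial, mesenchymal and matrix genes had 0.97 for CDH1, 0.29 for CDH2, -0.26 for KRT8, -0.35 for KRT18, 0.51 for SPINT2, -1.23 for SNAI2, -0.41 for VIM, 1.02 for COL4A1 and 1.08 for COL4A2. Neuronal and nephron genes had -1.38 for MAP2, -0.45 for NEFL, -0.84 for NEFM, -1.19 for INSM1, 0.69 for STMN3, 0.47 for PODXL, 0.54 for ITGA8 and -0.38 for EYA1. Among signalling, growth and death genes the values were -0.94 for BMP2, 0.69 for SMAD6, -0.39 for ID4, 0.92 for SFRP1, 0.43 for LGR4, 0.38 for AXIN2, 0.45 for ALDH1A2, 0.31 for FAS, -0.76 for PMAIP1, -0.46 for NOLC1, -0.38 for POLA2 and 0.70 for CDKN1C. A further value was 1.71 for BMF. Reported miR-210 targets and genes near MIR210 had 0.83 for MIR210HG, 0.99 for TMEM80, 0.27 for TALDO1, 0.30 for GATD1, 0.48 for NPTX1, -1.39 for BDNF, -0.23 for E2F3, -0.66 for KCMF1 and -0.42 for COX10. Other genes named for the size of their change had 1.11 for AC106881.1, 0.59 for ACTG1, -1.44 for DOK6, 0.63 for FLNA, -0.27 for GSPT1, 0.93 for HOXB-AS4, 0.50 for HSP90AA1, 0.30 for LAMP1, 1.26 for MAGEB2, 1.32 for MAOA, 0.91 for MAOB and 0.66 for PCDH9. Further values were 1.54 for PSMD5, -1.74 for RUNX1, 1.01 for SPOCK3 and -0.75 for SUSD4.

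Single libraries stood far from the other 3 of their group in 26 of 516 groups of 4, by Dixon's test at 95%. Chance gives about 1 in 20 such groups. MIR210-KO library 1 was the lowest of its group for DDB2 (20.2 CPM), SESN2 (105 CPM) and SUSD4 (15.1 CPM). MIR210-KO library 2 was the lowest of its group for EPCAM (3.72 CPM). MIR210-KO library 3 was the highest of its group for CSAG3 (0.0418 CPM), EYA1 (9.52 CPM), PGAM1 (609.8 CPM) and SLC16A6 (4.43 CPM). MIR210-KO library 3 was the lowest of its group for LHX1 (2.30 CPM). MIR210-KO library 4 was the highest of its group for ID1 (5.87 CPM). WT library 1 was the highest of its group for ASNS (22.0 CPM), MT-ND1 (1389 CPM) and NQO1 (5.59 CPM). WT library 1 was the lowest of its group for MAOA (5.49 CPM). WT library 2 was the highest of its group for DLL1 (16.2 CPM), DUSP2 (3.53 CPM) and SPRY2 (19.9 CPM). WT library 3 was the highest of its group for MAGEA10 (0.0387 CPM), SNAP25 (0.503 CPM) and TRIB2 (1.39 CPM). WT library 3 was the lowest of its group for EIF2AK1 (224 CPM), LDHA (1188 CPM), PTPRZ1 (0.348 CPM) and STC1 (1.12 CPM). WT library 4 was the highest of its group for CLDN1 (0.741 CPM). WT library 4 was the lowest of its group for HIF3A (0 CPM). The values of CSAG3, MAGEA10 and HIF3A rest on few counts.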

How the results depend on the processing

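Genes called higher and lower numbered 4284 to 5201 and 4012 to 5216 under the scalings, filters, sample sets and DESeq2, beside 4511 and 4305, and 4498 higher and 4237 lower genes were shared with DESeq2. Testing against a minimum fold of 1.5 left 1053 higher and 709 lower genes. MIR210HG, at -0.71, did not pass that test (adjusted p = 0.478). Leaving out 1 library at a time gave 4170 to 4276 higher and 3836 to 3940 lower genes, -0.89 to -0.53 for MIR210HG and 14 to 18 windows past the threshold, beside 15. The number of such windows was 14 with RLE size factors. The interaction was called for 5278 genes with RLE factors and 5611 with DESeq2, and the difference from MIR210HG-KO for 9862 and 9997. No gene named above changed direction under a setting where it was called there or in the main fit. Changes of sign in genes called in neither were not counted. Within normoxia, calls of MIR210-KO against WT in the 8 libraries alone were 5201 higher and 5216 lower, and with the replicate number as a block, which the labels share between groups, 5053 and 5092, with MIR210HG at -0.74. Same-numbered MIR210-KO and WT libraries did not deviate together, with correlations of -0.08, -0.02, -0.04 and -0.05. Whether they share more than a number is not in the labels. Outside the shifted chromosome regions, a choice made after seeing the data, the reported miR-210 targets called lower fell to 11, against 17. The cause of these changes was not tested. Depth limits genes under about 1 CPM, and with 4 libraries per group the spread is that between libraries of 1 line each.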
